A study of Mus musculus with 6 samples.

Results

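Transcripts used as markers of neutrophils, monocytes, macrophages and antigen-presenting cells were examined in sorted T follicular helper (Tfh) cells. In a bulk library, RNA made by the Tfh cells themselves and RNA of other cells cannot be told apart. The cell of origin was not tested for any member. The genes were 42 named members, of 25786 genes with a value in every library. They fall into neutrophil granule proteins (6 genes), neutrophil calprotectin, receptors and cytokines (7), monocyte and macrophage genes (14), myeloid signalling adaptors and Spi1 (3), complement and tissue macrophage genes (6), and antigen presentation and dendritic cell genes (6). Each member was read by its position in the genome. Lyz1 and Lyz2, a pair of neighbouring and closely related lysozyme genes, shared a row in 1 library and were given 1 summed value, which left 41 values.

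Tfh cells came from spleens of FoxP3GFP/DTR CD4Cre/+ Bob1fl/fl mice, the Bob1KO group (n = 3 libraries), and of control FoxP3GFP/DTR CD4+/+ Bob1fl/fl mice, the WT group (n = 3 libraries). Both groups carried the floxed Bob1 allele and the FoxP3 reporter on a C57BL/6 background, and both received NP-CGG (100 µg, a hapten-carrier antigen) in CFA (a mycobacterial oil adjuvant) by the intraperitoneal route, with spleens taken on day 7. The Cre transgene is driven by Cd4 elements and removes the whole of Pou2af1, the gene of the coactivator Bob1, from T cells, so other splenic cells keep the gene. The sort took GFP- CD3+ CD4+ CXCR5+ PD-1+ cells, B220+ cells were gated out, and full-length cDNA was made from 0.7 ng of RNA. Mice of the study were, unless stated otherwise, littermates matched for sex and 6 to 12 weeks old, and the libraries came from 3 experiments in each group with 10 to 12 mice in each, so a library may hold RNA of pooled mice. No source used here tells which experiment a replicate number marks.

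A neutrophil packs its weapons into granules that form in order as the cell matures in the bone marrow. Primary granules come first and hold elastase (Elane) and myeloperoxidase (Mpo). Secondary granules come later and hold lactoferrin (Ltf), cathelicidin (Camp), neutrophilic granule protein (Ngp) and lipocalin 2 (Lcn2). Mature neutrophils carry large amounts of S100a8 and S100a9, which pair to form calprotectin. Monocytes and macrophages are known by lysozyme, Cd68, Cd14 and Fc receptors, resident macrophages of tissues by the C1q chains of complement, and dendritic cells and B cells by MHC class II. Immunization with adjuvant is known to raise neutrophils and monocytes in the spleen.

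The promoters of the 2 S100 genes and of the 6 granule genes on the neutrophil lists are printed so that their letters can be compared; all 8 genes were highest in Bob1KO replicate 1 and lowest in Bob1KO replicate 2. Each holds 250 bases before and 50 after the RefSeq start (build GRCm38.p6), 5′ to 3′ on the gene's strand. Capitals mark GAGGAA, the core bound by PU.1, the myeloid factor encoded by Spi1, and TTGCNNAA, a site of the C/EBP type, each on either strand.
S100a8 (chr3:90668821-90669120, plus strand): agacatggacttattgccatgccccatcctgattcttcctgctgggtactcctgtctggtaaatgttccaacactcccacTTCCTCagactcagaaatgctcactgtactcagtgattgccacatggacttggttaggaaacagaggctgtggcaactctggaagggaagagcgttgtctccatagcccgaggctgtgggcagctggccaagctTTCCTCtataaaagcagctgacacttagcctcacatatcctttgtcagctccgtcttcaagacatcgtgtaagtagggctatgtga
S100a9 (chr3:90695672-90695971, minus strand): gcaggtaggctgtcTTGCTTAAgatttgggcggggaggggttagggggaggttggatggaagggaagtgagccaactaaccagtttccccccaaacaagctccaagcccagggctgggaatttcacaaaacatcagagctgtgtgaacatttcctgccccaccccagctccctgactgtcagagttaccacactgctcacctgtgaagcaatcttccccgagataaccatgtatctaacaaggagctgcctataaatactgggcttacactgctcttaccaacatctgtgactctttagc
Ngp (chr9:110419558-110419857, plus strand): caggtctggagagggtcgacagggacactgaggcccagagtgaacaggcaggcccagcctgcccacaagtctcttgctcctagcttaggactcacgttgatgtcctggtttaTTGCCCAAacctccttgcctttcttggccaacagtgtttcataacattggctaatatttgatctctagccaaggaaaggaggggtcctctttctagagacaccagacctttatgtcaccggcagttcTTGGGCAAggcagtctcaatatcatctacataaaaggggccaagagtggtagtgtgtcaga
Camp (chr9:109849407-109849706, minus strand): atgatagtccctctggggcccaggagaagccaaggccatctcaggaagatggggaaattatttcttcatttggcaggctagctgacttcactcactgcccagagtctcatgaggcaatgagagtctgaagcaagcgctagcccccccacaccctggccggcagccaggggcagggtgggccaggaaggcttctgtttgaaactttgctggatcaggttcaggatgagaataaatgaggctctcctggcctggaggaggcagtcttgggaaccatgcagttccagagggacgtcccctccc
Ltf (chr9:111019042-111019341, plus strand): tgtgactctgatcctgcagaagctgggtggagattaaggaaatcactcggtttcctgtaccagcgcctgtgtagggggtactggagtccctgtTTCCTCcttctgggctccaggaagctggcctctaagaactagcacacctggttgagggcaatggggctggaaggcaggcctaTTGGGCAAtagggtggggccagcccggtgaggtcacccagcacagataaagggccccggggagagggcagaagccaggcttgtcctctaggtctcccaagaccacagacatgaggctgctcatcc
Lcn2 (chr2:32387690-32387989, minus strand): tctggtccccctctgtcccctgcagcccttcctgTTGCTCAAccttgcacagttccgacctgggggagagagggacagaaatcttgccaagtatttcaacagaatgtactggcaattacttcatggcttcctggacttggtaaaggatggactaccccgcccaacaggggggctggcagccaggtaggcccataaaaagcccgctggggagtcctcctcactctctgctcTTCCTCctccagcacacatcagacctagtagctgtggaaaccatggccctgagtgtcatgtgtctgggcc
Elane (chr10:79886062-79886361, plus strand): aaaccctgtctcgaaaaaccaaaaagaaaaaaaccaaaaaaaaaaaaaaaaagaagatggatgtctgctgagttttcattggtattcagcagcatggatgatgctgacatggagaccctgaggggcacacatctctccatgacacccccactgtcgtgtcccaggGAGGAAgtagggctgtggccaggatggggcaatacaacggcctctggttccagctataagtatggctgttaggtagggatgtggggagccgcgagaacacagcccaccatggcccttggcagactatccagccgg
Mpo (chr11:87793534-87793833, plus strand): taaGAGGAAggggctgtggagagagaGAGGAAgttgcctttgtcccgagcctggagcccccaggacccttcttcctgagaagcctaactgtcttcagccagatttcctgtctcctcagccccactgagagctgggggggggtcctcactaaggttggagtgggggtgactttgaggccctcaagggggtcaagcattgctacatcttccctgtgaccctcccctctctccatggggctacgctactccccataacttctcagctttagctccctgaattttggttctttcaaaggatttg

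A promoter was matched for 32 of the 42 members. GAGGAA was found in 18 of these 32 and in 28.3% of all 27025 promoters, and TTGCNNAA in 9 of 32 and in 10.8% of all. The octamer ATTTGCAT, the site at which Oct factors recruit Bob1, was found on either strand in 0 of the 32 and in 1.75% of all promoters. Of the 12 neutrophil members with a promoter, 7 held GAGGAA and 5 held TTGCNNAA. Among the 8 printed, S100a8, Ltf, Lcn2, Elane and Mpo held GAGGAA, S100a9, Ngp, Ltf and Lcn2 held TTGCNNAA, and Camp held neither. These are matches of letters and not sites of binding.

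The labels and the sorted cell type were checked first. Pou2af1 had 46.1, 32.5 and 34.4 FPKM in WT and 1.16, 0.237 and 0.317 FPKM in Bob1KO replicates 1, 2 and 3 (FPKM, the count of cDNA fragments scaled to transcript length and to the mapped fragments of the library; log2 fold change -4.65 ± 0.257 (SE), adjusted P = 0.00378 in limma). Bob1KO replicate 1, which held the most RNA of the members, also held the most Pou2af1 of its group. All 10 defining Tfh genes had at least 37.8 FPKM in every library, and their summed FPKM ran from 3829 to 4754. Cd3e had 642 to 929 FPKM and Cd4 300 to 466 FPKM, while Cd8a stayed at or under 0.14 FPKM. Cd8b1, the other CD8 gene measured, had more, from 3.435 FPKM in Bob1KO replicate 1 to 5.995 FPKM in WT replicate 2. The low Cd8a alone therefore cannot show that RNA of CD8 T cells was absent. Sequencing depth, taken from the FPKM worth of 1 fragment, was 0.923 to 1.32 times that of WT replicate 1, and Bob1KO replicate 2 was the deepest. Ddx3y, a Y-linked gene, had 29.9 FPKM in WT replicate 2 and 27.9 FPKM in Bob1KO replicate 2 and was listed at 0 in the other 4 libraries. Xist, an X-linked gene, had 0.00243 FPKM in WT replicate 2, 0.00966 FPKM in Bob1KO replicate 2 and 6.45 to 12.7 FPKM in the other 4. Both genes thus split the libraries by replicate number and not by group.

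RNA of the members was present in every library, and its sum had a wider range among the Bob1KO libraries than among the WT libraries. The summed FPKM of the 41 values was 1212, 1026 and 1626 in WT and 6238, 401 and 2252 in Bob1KO. As a share of all FPKM of a library this was 0.239%, 0.199% and 0.297% in WT and 1.16%, 0.0802% and 0.459% in Bob1KO. The 3 WT libraries were close to each other, and the Bob1KO libraries lay on both sides of them. Cst3 and Ctss varied 1.93-fold and 1.32-fold over the 6 libraries. Together they held 48% of the sum in Bob1KO replicate 2, 4.78% in Bob1KO replicate 1 and 9.8% to 21.9% in the other 4 libraries. Bob1KO replicate 1 was the highest of the 6 libraries for 35 of 41 members, Bob1KO replicate 2 was the lowest for 29, and both held for 27. Of the 35 members with a mean of at least 1 FPKM, which were tested, 31 were highest in Bob1KO replicate 1 (19.0% of the 10323 genes tested) and 27 lowest in Bob1KO replicate 2 (19.6%), and both held for 25 (71.4%, against 4.16%). In a bulk library, fewer cells of a type and less RNA per cell cannot be told apart.

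**Figure D1:**
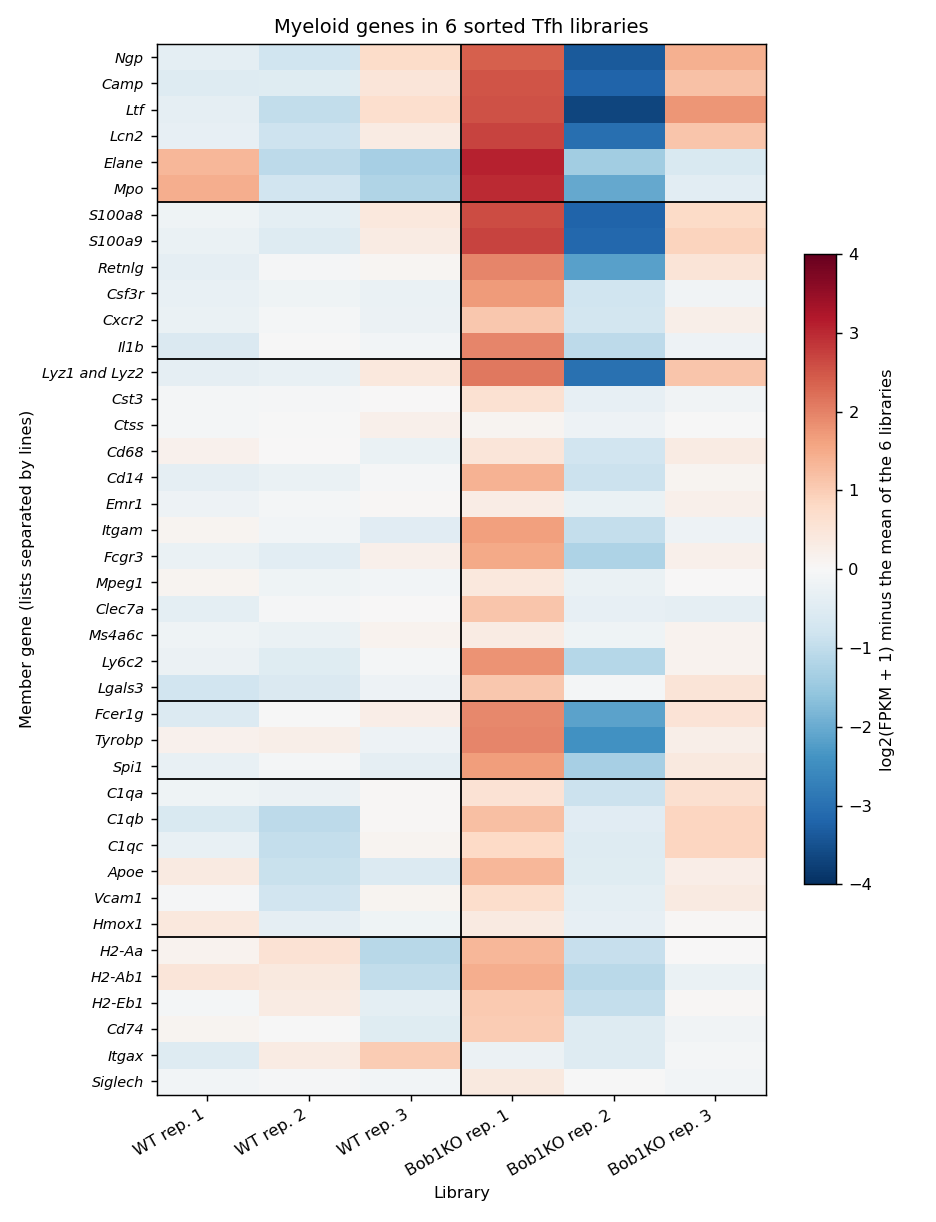
Heat map of log2(FPKM + 1) minus the mean of the 6 libraries (colour scale) for 40 members (rows, with lines between the 6 lists) in 3 WT and 3 Bob1KO libraries (columns); Csf3, at 0 in all, is not drawn. The column of Bob1KO replicate 1 is red in nearly all rows and that of Bob1KO replicate 2 blue in most, while Elane and Mpo are also red in WT replicate 1.

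No member differed between the groups at the adjusted threshold. Of the 35 members tested, 0 had an adjusted P below 0.05 (2 of all 10323 genes tested did, 0.0194%, the proprotein convertase gene Pcsk1 higher and Pou2af1 lower, 0.00969% each), and the smallest adjusted P was 0.827 in limma. At an unadjusted P below 0.05, 1 member was higher in Bob1KO (3.16% of all genes tested) and 0 were lower (2.11%), beside 5.27% of all genes in either direction. The log2 fold change was positive for 33 of 35 members (49.3% of all genes), with a median of 0.319 beside a median of -0.003 over all genes tested. This median moved most, and in opposite directions, when Bob1KO replicate 1 or Bob1KO replicate 2 was left out alone. It was -0.34 without Bob1KO replicate 1, 1.11 without Bob1KO replicate 2, and 0.42 without both, when Bob1KO replicate 3 alone stood for its group. Without Bob1KO replicate 2, 17 of 35 members were higher at an unadjusted P below 0.05 (3.64% of all genes tested in the same fit), still with 0 at the adjusted threshold. Most members shared the order of libraries at both ends. Counts of members, including the 33 of 35 with a positive sign, thus repeat the same few libraries and are not independent results.

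The spread between libraries of 1 group was far wider for these genes than for most. The within-group SD of log2(FPKM + 1) had a median of 1.0 over the 35 members and 0.212 over all genes tested. It was above the 95th percentile of all genes for 24 members and above the 99th for 10. The highest library was at least 4 times the lowest for 28 of 35 members (80%), against 8.42% of all genes.

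S100a8 and S100a9, which lie next to each other on chromosome 3 (S100a8 at chr3:90669071-90670034, S100a9 at chr3:90692630-90695721), gave the highest values. S100a8 had 294, 254 and 447 FPKM in WT and 2027, 35.5 and 567 FPKM in Bob1KO (332 ± 102 and 876 ± 1031, mean ± SD). S100a9 had 183, 155 and 276 FPKM in WT and 1434, 24.1 and 412 FPKM in Bob1KO. Bob1KO replicate 1 thus held 57.1 times the S100a8 of Bob1KO replicate 2, and the groups overlapped. For S100a8 the log2 fold change was 0.11 ± 1.31 (SE, adjusted P = 0.999 in limma). The bounds that Cufflinks gave for S100a8, 1988 to 2065 FPKM in Bob1KO replicate 1 and 30.8 to 40.1 FPKM in replicate 2, cover the uncertainty of the estimate within a library and not the variation between samples.

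The S100a9 value as a percent of S100a8 was close within each group. It was 62.3%, 61.2% and 61.8% in WT and 70.8%, 67.9% and 72.6% in Bob1KO, so the groups did not overlap (61.8 ± 0.53 and 70.4 ± 2.4, mean ± SD). An exact two-sided permutation test gave P = 0.1, the smallest that 3 against 3 libraries can give. This ratio was picked after the values were seen, so the test cannot decide whether the groups differ. The bounds of Cufflinks for both genes, combined, gave 55.4% to 80.4% in Bob1KO replicate 2, which covers all WT values.

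The secondary granule genes followed the S100 genes from library to library. Ngp, Camp and Ltf all lie on chromosome 9 (chr9:110419808-110423012, chr9:109847377-109849456 and chr9:111019292-111042766), and Lcn2 on chromosome 2. Ngp had 84.2, 64.5 and 185 FPKM in WT and 591, 10.1 and 304 FPKM in Bob1KO. Camp had 36.0, 36.6 and 72.4 FPKM in WT and 303, 4.77 and 119 FPKM in Bob1KO. Both were highest in Bob1KO replicate 1, next in Bob1KO replicate 3 and then in WT replicate 3. Ltf had 26.8, 17.3 and 56.7 FPKM in WT and 209, 1.80 and 122 FPKM in Bob1KO, a 116-fold range between the first 2 Bob1KO replicates. Lcn2, which binds bacterial siderophores, had 29.4, 20.5 and 46.4 FPKM in WT and 247, 3.70 and 80.0 FPKM in Bob1KO. The log2 fold changes of these 4 genes lay between 0.31 and 0.54, each with an SE above 1.3, and none passed the test.

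The primary granule enzymes had another order of libraries. Elane had 31.9, 5.29 and 4.16 FPKM in WT and 110, 4.01 and 7.52 FPKM in Bob1KO. Mpo had 43.1, 8.33 and 5.92 FPKM in WT and 124, 2.87 and 10.9 FPKM in Bob1KO. Both were highest in Bob1KO replicate 1 and next highest in WT replicate 1, with the other 4 libraries at or under 10.9 FPKM. Summed, these 2 enzymes came to 42.5%, 9.81% and 2.79% of the 4 secondary granule genes in WT replicates 1, 2 and 3, and to 17.3%, 33.9% and 2.95% in Bob1KO replicates 1, 2 and 3. The 2 libraries numbered 3 were lowest and the 2 groups overlapped. Prtn3 and Ctsg, serine proteases of the same granules that are not members and were picked after their values were seen, gave 13.7%, 5.53% and 1.08% in WT and 6.06%, 8.09% and 0.959% in Bob1KO, also lowest in the libraries numbered 3.

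**Figure D2:**
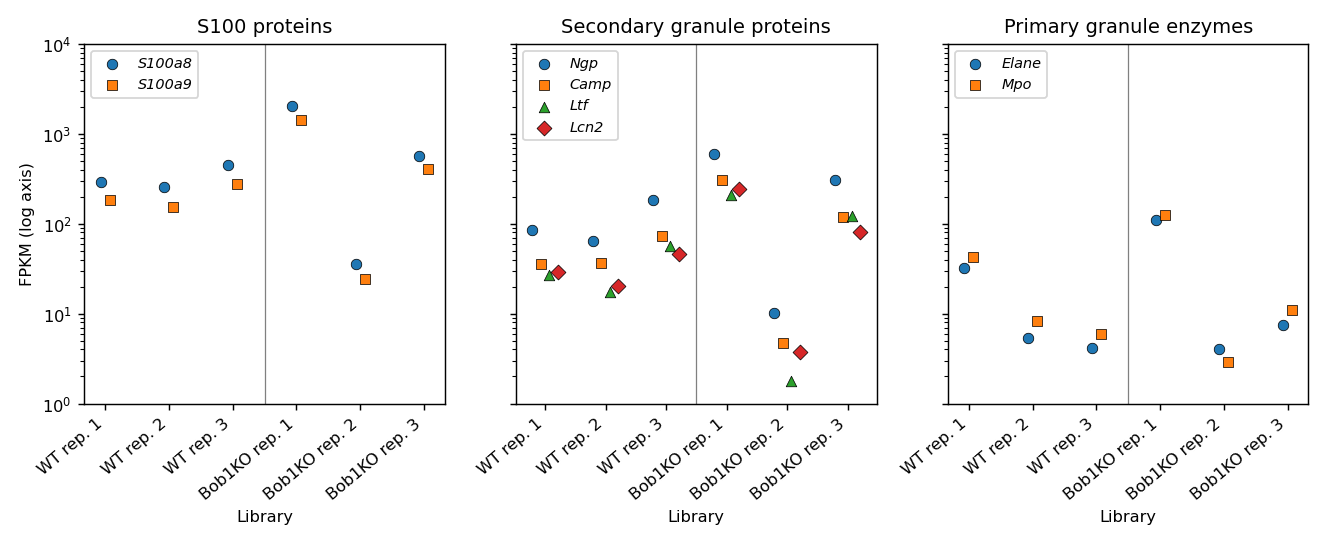
FPKM (log axis) of S100a8 and S100a9 (left), 4 secondary granule genes (middle) and 2 primary granule genes (right) in each library; a point is 1 gene in 1 library and the grey line parts WT from Bob1KO. S100a8 runs from 35.5 FPKM in Bob1KO replicate 2 to 2027 FPKM in Bob1KO replicate 1, and WT replicate 1 stands above the other WT libraries only for Elane and Mpo.

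Retnlg, a resistin-like protein of neutrophils, had 13.5, 16.8 and 18.7 FPKM in WT and 71.2, 3.08 and 25.4 FPKM in Bob1KO. Il1b, the cytokine interleukin 1 beta, had 1.98, 3.44 and 3.11 FPKM in WT and 16.2, 1.16 and 2.88 FPKM in Bob1KO. Both repeated the order of S100a8 at its ends, with Bob1KO replicate 1 highest and Bob1KO replicate 2 lowest. The receptors Csf3r and Cxcr2, for the growth factor G-CSF and for CXC chemokines, were lower, with a mean of 2.38 and 1.41 FPKM over the 6 libraries. Csf3, which encodes G-CSF itself, was listed at 0 in all 6 libraries. Over the 13 genes of both neutrophil lists the summed FPKM was 747, 584 and 1118 in WT and 5144, 92.0 and 1653 in Bob1KO. In Bob1KO replicate 1 these genes alone held 0.955% of the FPKM of the library, and in Bob1KO replicate 2 they held 0.0184%.

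The monocyte and macrophage list split into genes that followed the neutrophil pattern and genes that did not. The 2 lysozymes together (chr10:117277541-117292868) had 57.1, 60.3 and 99.8 FPKM in WT and 322, 8.47 and 161 FPKM in Bob1KO, the order of Camp. Ly6c2, a surface protein of inflammatory monocytes whose reads cannot be cleanly parted from the near-identical Ly6c1, had 13.5, 11.2 and 15.2 FPKM in WT and 58.0, 6.81 and 18.1 FPKM in Bob1KO. Cst3, the protease inhibitor cystatin C, had 106, 109 and 113 FPKM in WT and 171, 88.7 and 103 FPKM in Bob1KO. Ctss, the protease cathepsin S, had 111, 116 and 137 FPKM in WT and 127, 104 and 118 FPKM in Bob1KO. Thus Ctss varied 1.32-fold over all 6 libraries, in which the lysozymes varied 38-fold. The within-group SD of Ctss was at the 28th percentile of all genes, and that of the lysozymes at the 99.4th. Cst3 lay between them, with a 1.93-fold range and a within-group SD at the 77.6th percentile. Like the lysozymes, Cst3 was highest in Bob1KO replicate 1 and lowest in Bob1KO replicate 2.

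Lgals3, which encodes the lectin galectin 3, was the 1 member past an unadjusted P of 0.05. It had 7.87, 9.03 and 11.9 FPKM in WT and 30.6, 13.3 and 20.5 FPKM in Bob1KO, so that each Bob1KO library was above each WT library. Groups that did not overlap in this direction were found for 1 of 35 members (2.86%) and for 5.83% of all genes tested, and in the other direction for 0 members and 4.86% of all genes. The log2 fold change was 1.03 ± 0.296 (SE, adjusted P = 0.827 in limma). Unlike the neutrophil genes, Lgals3 was not lowest in Bob1KO replicate 2, and its log2 fold change stayed between 0.74 and 1.32 when each library was left out in turn.

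Of the remaining genes of this list, Cd68, a lysosomal protein of macrophages, had means of 7.51 ± 1.26 FPKM in WT and 8.28 ± 3.70 FPKM in Bob1KO (SD). Ms4a6c had 12.5 to 19.5 FPKM, a sum of 2 overlapping rows in each library and so uncertain. Cd14, Itgam and Fcgr3, which encode a receptor for lipopolysaccharide, the integrin CD11b and an Fc receptor, had means over the 6 libraries between 1.51 and 4.69 FPKM and were 12.4 to 22.8 times higher in Bob1KO replicate 1 than in replicate 2. Emr1, Mpeg1 and Clec7a were below a mean of 1 FPKM and were not tested. Emr1 encodes F4/80, a marker of mature macrophages, and its highest value was 0.583 FPKM, in Bob1KO replicate 1.

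The adaptors and Spi1 kept the neutrophil order at both ends. Fcer1g, the shared chain of activating Fc receptors, had 6.48, 9.84 and 12.4 FPKM in WT and 40.6, 1.48 and 15.0 FPKM in Bob1KO. Tyrobp, the adaptor DAP12, had 15.4, 16.5 and 11.8 FPKM in WT and 56.3, 1.75 and 16.5 FPKM in Bob1KO. Spi1, which encodes PU.1 and shares its row with a second annotated locus, had 4.81, 5.63 and 4.47 FPKM in WT and 21.6, 1.82 and 8.32 FPKM in Bob1KO. WT values of these 3 genes spanned less than 2-fold and Bob1KO values over 11-fold. Their log2 fold changes were 0.20, -0.14 and 0.50, each smaller than its SE.

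The complement and tissue macrophage genes differed from the neutrophil genes in where they were low. Apoe, apolipoprotein E, had 38.4, 15.6 and 20.4 FPKM in WT and 76.2, 21.2 and 36.5 FPKM in Bob1KO. The C1q genes lie side by side (C1qb at chr4:136880126-136886200, C1qc at chr4:136889801-136892936, C1qa at chr4:136895916-136898844). C1qb had 0.591, 0.157 and 1.51 FPKM in WT and 4.55, 0.764 and 3.41 FPKM in Bob1KO. C1qc had 1.16, 0.377 and 1.88 FPKM in WT and 3.59, 0.861 and 3.85 FPKM in Bob1KO. For 5 of these 6 genes WT replicate 2 was the lowest library (23% of all genes tested), and only C1qa was lowest in Bob1KO replicate 2. Hmox1, heme oxygenase 1, stayed between 14.8 and 26.3 FPKM, and Vcam1, an adhesion molecule of splenic macrophages and stroma, between 0.225 and 2.36 FPKM.

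Replicate numbers of both groups went together in these data, so each Bob1KO library was also set beside the WT library of the same number. For the 12 neutrophil members tested the median log2 difference, Bob1KO minus WT, was 2.66 in the libraries numbered 1, -2.16 in those numbered 2 and 0.639 in those numbered 3. For the complement and tissue macrophage list it was 0.863, 0.395 and 0.675. C1qb, C1qc, Apoe, Vcam1 and Lgals3 were higher in Bob1KO in all 3 pairs, which is 5 of 35 members (14.3%) and so close to the 14.9% of all genes tested. With the replicate number as a block, 4 members were higher at an unadjusted P below 0.05 (Apoe, Lgals3, C1qb and C1qc, 3.73% of all genes), where 1 was without it. The smallest adjusted P was then 0.449, for Apoe (log2 fold change 0.73 in limma).

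**Figure D3:**
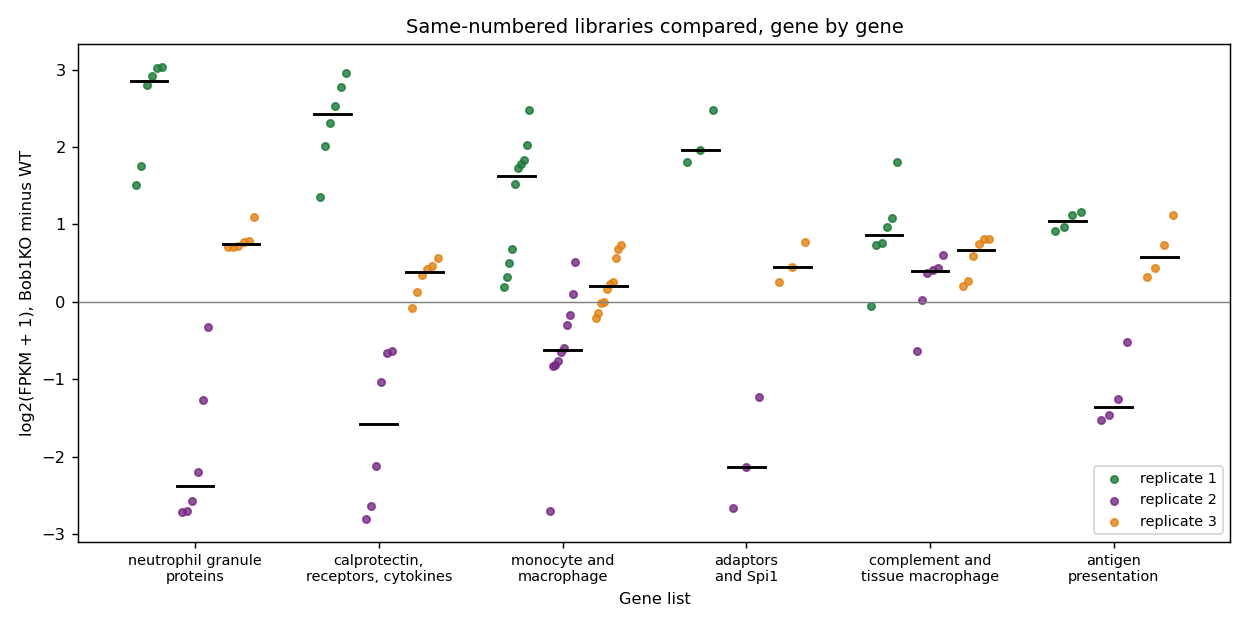
Difference in log2(FPKM + 1), Bob1KO minus WT, between libraries of the same replicate number, for the tested members of each list (points, coloured by replicate number) with the median as a bar. In the replicates numbered 2 the neutrophil lists lie below 0, at medians of -2.38 and -1.58, while the complement list lies at 0.395.

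The class II genes and Cd74, the invariant chain that escorts them, kept the neutrophil order at both ends for 3 of 4 genes tested. Cd74, H2-Ab1 and H2-Eb1 were highest in Bob1KO replicate 1 and lowest in Bob1KO replicate 2. H2-Aa was also highest in Bob1KO replicate 1 but lowest in WT replicate 3. Between the ends, the order of libraries differed from that of the secondary granule genes. Cd74 had 33.8, 30.9 and 22.1 FPKM in WT and 64.4, 21.3 and 27.9 FPKM in Bob1KO. H2-Ab1, a class II beta chain, had 7.68, 7.09 and 2.10 FPKM in WT and 15.9, 1.94 and 4.15 FPKM in Bob1KO. H2-Aa, a class II alpha chain, had 3.52, 5.08 and 0.870 FPKM in WT and 9.09, 1.12 and 3.08 FPKM in Bob1KO. Summed with H2-Eb1, at 0.416 to 4.62 FPKM, the class II genes came to 0.905% of S100a8 in WT replicate 3 and to 9.79% in Bob1KO replicate 2. WT replicate 3, the WT library with the most S100a8, was thus the WT library with the least class II. Itgax, which encodes CD11c of dendritic cells, was highest in WT replicate 3 at 1.88 FPKM and Siglech, of plasmacytoid dendritic cells, was at or under 0.407 FPKM, and neither was tested.

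Other genes of the same cells were counted from longer lists. Of 30 other neutrophil genes, 28 were highest in Bob1KO replicate 1 and 26 lowest in Bob1KO replicate 2, and of the 23 tested 0 passed the adjusted threshold, with a median log2 fold change of 0.385. Chil3, a chitinase-like protein of myeloid cells, had 13.5, 12.7 and 29.8 FPKM in WT and 105, 1.70 and 46.5 FPKM in Bob1KO, while Pglyrp1, a peptidoglycan-binding protein, had 73.9 to 145 FPKM. At an unadjusted P below 0.05 the count was also 0. Of 25 other monocyte and macrophage genes, 15 were highest in Bob1KO replicate 1 and 14 lowest in Bob1KO replicate 2. Of the 10 tested, both held for 6 (4.16% of all genes tested), and 0 passed the adjusted threshold. At an unadjusted P below 0.05 in limma, 1 was higher (3.16% of all genes tested) and 1 lower (2.11%). On this list, Ifitm3 had 1.65 FPKM in Bob1KO replicate 2 and 55.8 FPKM in replicate 1. Cebpb had 104 to 183 FPKM with its highest value in WT replicate 1. Vsig4 was listed at 0 in all libraries, and Marco, Msr1, Mrc1 and Cd163, receptors of tissue macrophages, had at most 0.361 FPKM. Csf1r, Slc40a1 and Sirpa had up to 4.18, 3.54 and 3.17 FPKM, each highest in Bob1KO replicate 1 and lowest in Bob1KO replicate 2. The genes from Vsig4 to Sirpa were picked after their values were seen. Other dendritic cell genes did not share the pattern: of 14 measured, 2 were highest in Bob1KO replicate 1 and 1 lowest in Bob1KO replicate 2. Bst2 and Irf8, both also made by lymphocytes, had 48.4 to 79.8 and 11.5 to 23.1 FPKM, and Clec9a was listed at 0 throughout. Of 5 tested, 0 passed the adjusted threshold. Irf8 alone was lower in Bob1KO at an unadjusted P below 0.05 (log2 fold change -0.46 in limma; 2.11% of all genes tested were lower). Its Bob1KO values reached 17.15 FPKM and its WT values began at 17.24 FPKM.

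Of the 10 genes on a list of eosinophils, basophils and mast cells, 6 were highest in Bob1KO replicate 1, 3 in Bob1KO replicate 3 and 1, Siglecf, in WT replicate 2, and only Prg2, Prss34 and Mcpt8 reached a mean of 1 FPKM. Prg2, the major basic protein of eosinophils, had 1.02, 0 and 0.0588 FPKM in WT and 20.2, 0 and 17.4 FPKM in Bob1KO (log2 fold change 2.50, adjusted P = 0.939 in limma). Prss34, a protease of basophils and mast cells, had 1.91, 1.70 and 2.75 FPKM in WT and 15.0, 0 and 2.84 FPKM in Bob1KO. Prg2 was thus nearly as high in Bob1KO replicate 3 as in replicate 1, and Prss34 was not. Epx, eosinophil peroxidase, picked after its values were seen, was listed at 0 in all WT libraries and in Bob1KO replicate 2 and had 1.84 FPKM in Bob1KO replicate 3, with a slightly higher value in replicate 1. Epx was not tested. Prg2, Prss34 and Mcpt8 were tested, and 0 of these 3 passed the adjusted or the unadjusted threshold. With the replicate number as a block in limma, 1 of the 3 was higher at an unadjusted P below 0.05 (3.73% of all genes tested).

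Lists of other cells that a spleen holds followed the order of the neutrophil genes in part or not at all. The platelet genes, Pf4 and Ppbp among them at up to 1.61 and 1.40 FPKM, and the follicular stromal genes, Clu and Col1a1 among them at up to 0.630 and 0.477 FPKM, summed to at most 3.11 and 1.11 FPKM in any library and had 0 genes tested. Erythroid genes were highest in Bob1KO replicate 3 for 6 of 9 measured genes and lowest in WT replicate 1 for 7, with Hba-a1 at 2.07 to 8.70 FPKM and Car2 at 1.36 to 5.70 FPKM. B cell genes were highest in Bob1KO replicate 1 for 7 of 14 genes and lowest in Bob1KO replicate 2 for 5, and both held for 3. Only 3 of the 14 reached a mean of 1 FPKM and were tested, and both held for 0 of those (4.16% of all genes tested). The 14 B cell genes summed to 24.2 to 57.2 FPKM, with the largest sum in Bob1KO replicate 1. Of this Cd22 gave 17.8 to 44.9 FPKM and Cd79b 1.32 to 4.36 FPKM. Pax5 and Ebf1, defining factors of B cells, had at most 0.235 FPKM. Of 5 plasma cell genes tested, 2 were highest in Bob1KO replicate 1 and lowest in Bob1KO replicate 2. The list was led by Xbp1, at 73.5 to 107 FPKM, and Igj, the joining chain, which had 16.8 FPKM in Bob1KO replicate 1 and 1.86 to 5.55 FPKM elsewhere. All 10 Tfh genes were higher in Bob1KO replicate 1 than in replicate 2, with a median log2 difference of 0.351 (0.061 over all genes tested), from Tcf7 at 982 and 978 FPKM to Pdcd1, which encodes the sort marker PD-1, at 554 and 331 FPKM. The CD8 and NK genes Klrb1c and Eomes lay between 4.04 and 13.1 FPKM. Of the 27 genes tested on these lists 0 passed the adjusted threshold in limma. At an unadjusted P below 0.05, 2 were higher in Bob1KO, Cd4 and Irf4 (3.16% of all genes tested), and 1 lower, Prf1 (2.11%).

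**Figure D4:**
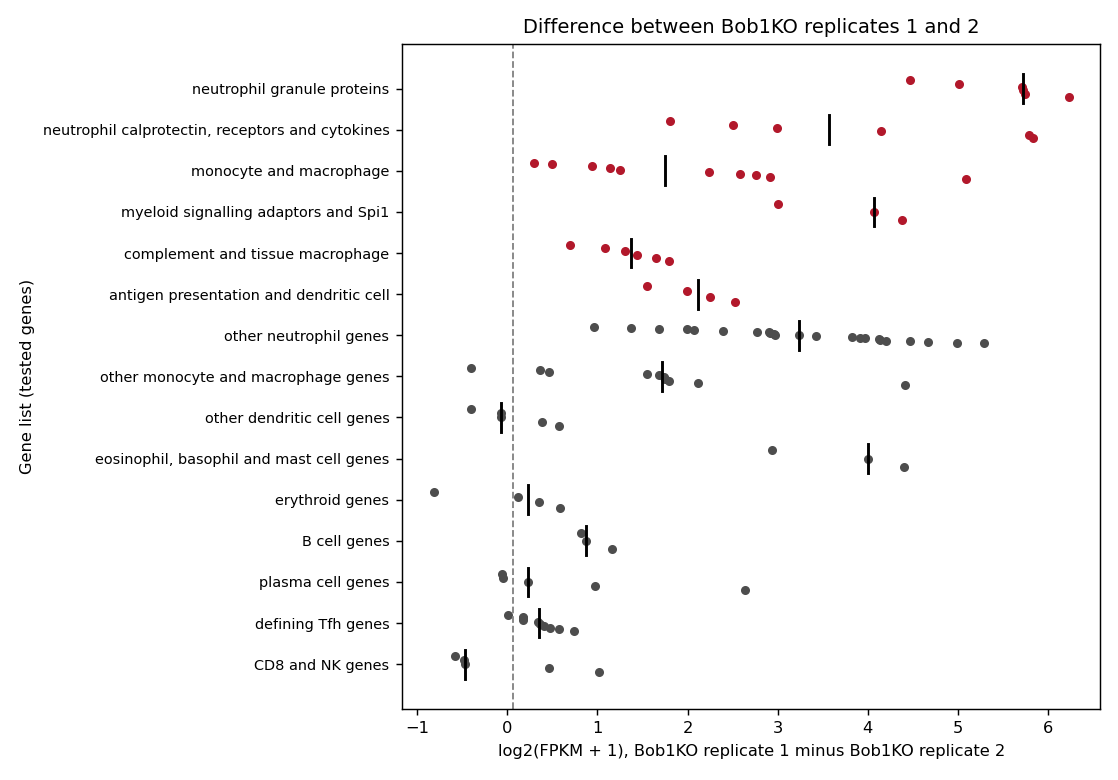
Difference in log2(FPKM + 1) between Bob1KO replicates 1 and 2 for the tested genes of each list (points; red, the 6 lists of members, grey, the other lists), with the list's median as a bar and the median of all genes tested, 0.061, as a dashed line. The median is 5.72 for the neutrophil granule genes, 4.0 for eosinophil, basophil and mast cell genes, 0.351 for the Tfh genes and -0.076 for the other dendritic cell genes.

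The libraries with Y-linked RNA were 1 of each group, so the members were also compared among the other 4. There the median log2 fold change was 1.13, with 0 members past the adjusted threshold in limma. At an unadjusted P below 0.05, 12 of 35 members were higher (2.68% of all genes tested in the same fit). This choice was made after the data were seen and drops Bob1KO replicate 2, the lowest library for 27 of the 35. The median was already 1.11 and the count 17 with Bob1KO replicate 2 alone left out. The fit therefore cannot part Y-linked status from the low values of that library. In the pair with Y-linked RNA, S100a8 was 254 FPKM in WT and 35.5 FPKM in Bob1KO, with 1 library each and no test. The part of Y-linked status in the low values of Bob1KO replicate 2 was not tested.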

How the data were processed

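Deposited values were FPKM per row and library with confidence bounds, which the authors made with cutadapt 1.2.1, TopHat2 2.0.13 and Cufflinks 2.2.1 on GRCm38 (versions per the submitters' processing notes; the sources used here name no annotation version). A further table by the authors compares both groups and holds their group FPKM, used to name genes, and a log2 fold change, test statistic, p-value and q-value, which were not used. Transcripts were assembled per library, so 94.1% to 95.9% of the FPKM stood in rows without a gene name. Rows with a gene name were given to that gene. Other rows went to the gene whose span they shared by at least 0.5 of the joint length. A gene with no such row in a library took rows that covered at least 0.95 of its span. Spans came from rows with a gene name, or else from RefSeq transcripts or genes. The rows of a gene were summed. No fragment counts were recovered and no count test was run.

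Genes with a mean of at least 1 FPKM (10323) went into a two-sided test in limma (version 3.58.1, R version 4.3.3) of group alone, on values of log2(FPKM + 1) with a variance trend; P was adjusted by Benjamini-Hochberg (threshold 0.05). Fold changes are on that scale and understate those of low genes. The scripts were tested on simulated data; tables used Python 3.11.15 and pandas 2.3.3. Samples were grouped and numbered by their titles. Deviations of same-numbered libraries from their group means correlated at 0.122, 0.125 and 0.123 over all genes tested (all 6 libraries best with their own number), so the numbers were taken to pair the samples; this rests on the data, not on the labels. The study names 3 experiments per group; P measures the spread between these libraries. Alternatives were pseudocounts of 0.1 and 5, no filter, a mean FPKM of at least 5, median ratio scaling, quantile normalization, no variance trend, an overlap of 0.7, a replicate block and each library left out. Members and lists were chosen with earlier results of these data known. Named in every library are up to 4 members of each list by mean FPKM and any past the unadjusted threshold; of the other lists up to 2 genes by mean FPKM.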

Additional observations from a re-analysis of the deposited data

How the results depend on the processing

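The count of genes called was 2 in all (Pcsk1 higher, Pou2af1 lower). It was 1 with a pseudocount of 0.1, 1 with a mean FPKM of at least 5 and 1 with the replicate block. With no filter, with median ratio scaling and with quantile normalization it was 3. The count ran from 0 (without WT replicate 2) to 7 (without WT replicate 1) when 1 library was left out. It was 12 with Bob1KO replicates 1 and 2 both left out, a choice made after seeing the data, as was leaving out both libraries with Y-linked RNA. The count of members called was 0 under every alternative run. Pou2af1 fell under all of them, and its adjusted P in limma was above 0.05 only with WT replicate 2 left out (0.0686, with log2 fold changes of -4.91 to -4.50 over the single libraries left out) and with both Y-linked libraries left out (-4.60, adjusted P = 0.096); the cause was not tested. The members' median log2 fold change ran from 0.24 to 0.32 over the other pseudocounts, filters, scalings, the variance without a trend and the overlap of 0.7, and from -0.34 to 1.11 over single libraries left out. The replicate block changed no other call. The neutrophil sum without S100a8 was 452 in WT replicate 1 and 671 FPKM in WT replicate 3; under the other alternatives it moved by less than the SD of its group.

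The direction of 20 of the 24 members given in full turned with a single library left out, mostly Bob1KO replicate 1. Their log2 fold changes then ran over these ranges: Ngp -0.80 to 2.07, Camp -0.83 to 2.03, Ltf -0.73 to 2.38, Lcn2 -0.69 to 2.17, S100a8 -1.17 to 1.73, S100a9 -0.97 to 1.94, Retnlg -0.73 to 1.34, Il1b -0.39 to 1.11, Ctss -0.13 to 0.027, Lyz1 and Lyz2 -0.86 to 1.69, Cst3 -0.19 to 0.28, Ly6c2 -0.22 to 1.24, Tyrobp -1.15 to 1.04, Fcer1g -0.70 to 1.33, Spi1 -0.21 to 1.28, Hmox1 -0.11 to 0.29, Cd74 -0.21 to 0.56, H2-Ab1 -0.63 to 0.63, H2-Aa -0.34 to 0.79, H2-Eb1 -0.40 to 0.59. With Bob1KO replicates 1 and 2 both left out the direction turned for Cst3 (-0.087), Cd74 (-0.03), H2-Ab1 (-0.23) and Tyrobp (0.18). Tyrobp also turned with a pseudocount of 5 (0.09) and without the Y-linked libraries (1.13), and H2-Eb1 with a pseudocount of 0.1 (-0.032). With 1 library left out, an arm of 2 libraries sets the spread together with the other arm; with both Bob1KO replicates left out, that arm is Bob1KO replicate 3 alone, which is assumed to vary as WT does. Values under about 1 FPKM rest on few fragments, as in Bob1KO replicate 2 for Cd14 (the bounds of Cufflinks match 7 fragments).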

Other observations

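Of the 6266 genes with a mean of at least 10 FPKM, the 20 with the widest within-group SD of log2(FPKM + 1) held 0 members and 0 genes of the other lists. In 18 of the 20 the gene was listed at 0 in at least 1 library. The first 5 were Tuba1a with Tuba1b, Snord104, Ankar, 2010003O02Rik and Eif2s3y. The neighbouring tubulin genes Tuba1a and Tuba1b, as 1 unit, had 223, 0 and 0 FPKM in WT and 259, 221 and 0 FPKM in Bob1KO. Such a 0 in a gene that all cells use is a value listed by the assembly and cannot be read as absence of the RNA.

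Among the 6226 of these genes with at least 1 FPKM in every library, a limit set after the data were seen, 9 of the 20 widest were members and 2 more, Chil3 and Prtn3, were on the list of other neutrophil genes. Ltf was the widest of all, with an SD of 2.47, and Ngp, Camp, S100a9, Lcn2, S100a8, Mpo, Elane and the lysozymes followed with 2.25 to 1.93. Of these 20 genes 14 were highest in Bob1KO replicate 1. On no list were 9, such as Cdk8 with Mir5105, at 525 FPKM in Bob1KO replicate 1 and 5.87 to 8.39 FPKM elsewhere.

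Axl, a receptor tyrosine kinase of macrophages that clears dying cells, was the gene of the other monocyte and macrophage list with the smallest P and was picked after its values were seen. It had 3.61, 2.44 and 5.39 FPKM in WT and 13.9, 9.81 and 10.5 FPKM in Bob1KO, so the groups did not overlap (log2 fold change 1.40, adjusted P = 0.352 in limma). Its value in Bob1KO replicate 2 was above every WT library, unlike that of most members. Mertk, a related receptor, had at most 0.339 FPKM.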
